A study of Drosophila melanogaster with 3 samples.

Results

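The 44 genes described here are homeotic and patterning genes of Drosophila melanogaster that are classical targets of Polycomb group repression, of 13945 protein-coding genes on the main chromosome arms. They were chosen by name, and a peak call was given to a gene when its summit lay in the gene or within 5000 bp of either end, a stretch called its window below. The calls come from chromatin immunoprecipitation and sequencing (ChIP-seq) of whole embryos of both sexes, 0 to 24 hours old, in 3 biological replicates that the labels number 1, 2 and 4. All embryos came from a transgenic line that stably expresses CG10565 fused at its C-terminus to eGFP, and an anti-GFP antibody was used for the precipitation. The replicates form 1 group with no second condition, so the comparisons set genes against other genes within the same lists. Embryos of the whole day of development were mixed, and a site bound in few cells cannot be told apart from a site bound weakly in many.

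The CG10565 protein carries a J domain and is the fly relative of DNAJC2, a ribosome-associated chaperone that in human cells also binds ubiquitinated histone on chromatin. Polycomb group proteins keep developmental genes silent outside the cells that need them. In flies they are recruited through Polycomb response elements, and one of the complexes ubiquitinates a histone at its targets. Homeotic (Hox) genes, which give body segments their identity, were the first known targets, and many other transcription factor genes that lay out the embryo belong to the same class.

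In the deposited lists few of these genes had a strong call, and nearly all had weaker ones, as other genes of their lengths did. There were 30000 calls in the pooled list and as many in each replicate list. The list of reproducible peaks, made by the authors with the irreproducible discovery rate (IDR), held 1143, and these were the 1143 pooled calls with the highest signal. An IDR peak lay in the window of 4 members, NK7.1, cad, Doc2 and Doc3. That is 9.09% of the 44 genes (95% Wilson interval 3.59 to 21.2), beside 18.0% of all protein-coding genes. Among the 13901 other genes, weighted to the 6 length classes of the members, the share was 24.0%, at which 10.6 members would carry a peak, and it lay above the interval of the members. The contrast depended on how peaks were given to genes. With each IDR peak given to its nearest protein-coding gene at any distance, 6 members had one (13.6%), against 13.4% of other genes of the same lengths and 6.78% of all protein-coding genes. When calls in the top 1143 of the remaining replicates replaced the IDR list, 1 member had one without replicate 1 and 2 without replicate 2, against 12.9% and 16.1% of other genes. Without replicate 4 there were 4 members (9.09%), against 14.7%, which their interval held. Intervals cover counting error only and treat genes as independent, although Doc2 and Doc3 share 1 peak.

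The members' windows held fewer start sites than those of other genes, and this moved with the result. A median of 9.1% of a member's window (3.3 to 27.4%) lay within 500 bp of an annotated transcription start site, against 21.0% for other genes of the same lengths. Within their length classes, 33 of the 44 members fell in the third of genes with the least such sequence, and 3 of these 33 had an IDR peak, against 10.9% of other genes so placed, whatever their length. A weighting by length and by this split together was added after the data had been seen. Against it, 9.09% of members had an IDR peak and 18.6% of other genes, at which 8.2 members would carry one. The interval of the members reached 21.2% and so held this value.

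**Figure D1:**
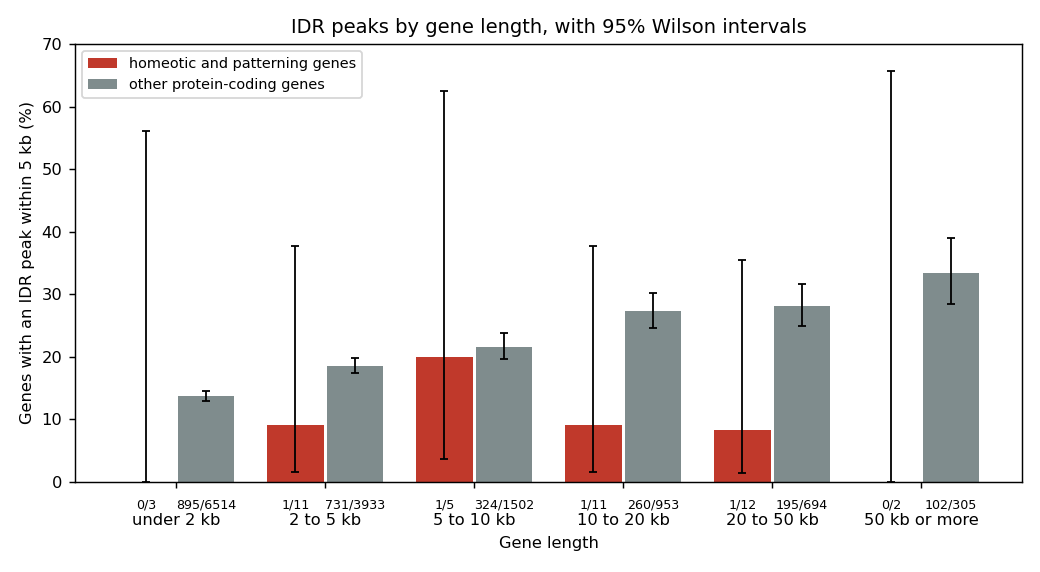
Percent of genes with an IDR peak within 5 kb (vertical axis), by gene length (horizontal axis), for the homeotic and patterning genes (red, left) and other protein-coding genes (grey, right). Bars are shares, lines are 95% Wilson intervals, and the fractions give genes with a peak over genes in the class; the share of the members was below that of other genes in each class, with at most 12 members in any of them.

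The lower share was seen in each length class, though each class is small. Of the 12 members of 20 to 50 kb, 1 had an IDR peak (8.33%), against 28.1% of other genes of that length. Of the 11 members of 10 to 20 kb, 1 had one (9.09%), against 27.3% of other genes, and of the 11 members of 2 to 5 kb also 1, against 18.6%. Of the 5 members of 5 to 10 kb, 1 had a peak (20%), against 21.6% of other genes. None of the 3 shortest members and neither Antp nor Ubx, the only members over 50 kb, had one, against 13.7% and 33.4% of other genes.

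Sequences are shown for the strongest peaks at the members and in the Hox complexes. They are the 201 bases centred on the pooled summit, from the plus strand of the RefSeq release 6 genome (dm6). NK7.1 (chr3R:14373283-14373483), cad (chr2L:20787296-20787496) and Doc2 and Doc3 (chr3L:9011844-9012044) are the strongest IDR peak of each member that had one. The bithorax complex peak (chr3R:16798773-16798973) is an IDR peak among the Hox genes outside the windows, and was chosen after its values were seen. Antp (chr3R:6912469-6912669) and Abd-B (chr3R:16958275-16958475) are the strongest calls in Hox gene windows of the Antennapedia and the bithorax complex. Capitals mark GAGAG or its reverse complement CTCTC, the core element of GAGA factor. The core element of Pho, GCCAT, occurs in none of the 6 shown. At the strongest calls of tin, tup and dac, not shown, there were 0, 0 and 1 matches to it.
NK7.1: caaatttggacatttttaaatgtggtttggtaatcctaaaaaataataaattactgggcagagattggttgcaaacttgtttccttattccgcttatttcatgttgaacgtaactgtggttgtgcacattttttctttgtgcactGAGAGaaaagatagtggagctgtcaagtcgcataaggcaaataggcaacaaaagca
cad: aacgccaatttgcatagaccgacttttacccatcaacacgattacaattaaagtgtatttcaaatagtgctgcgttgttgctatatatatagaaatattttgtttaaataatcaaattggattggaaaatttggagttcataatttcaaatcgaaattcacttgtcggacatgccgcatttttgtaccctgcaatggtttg
Doc2 and Doc3: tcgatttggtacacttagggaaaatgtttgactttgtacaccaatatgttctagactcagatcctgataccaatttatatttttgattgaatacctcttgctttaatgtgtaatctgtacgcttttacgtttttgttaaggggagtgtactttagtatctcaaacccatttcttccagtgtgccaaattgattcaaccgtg
bithorax complex: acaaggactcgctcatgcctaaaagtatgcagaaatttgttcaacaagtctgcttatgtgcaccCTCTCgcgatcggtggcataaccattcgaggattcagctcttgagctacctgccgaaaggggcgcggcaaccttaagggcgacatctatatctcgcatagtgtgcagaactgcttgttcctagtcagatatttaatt
Antp: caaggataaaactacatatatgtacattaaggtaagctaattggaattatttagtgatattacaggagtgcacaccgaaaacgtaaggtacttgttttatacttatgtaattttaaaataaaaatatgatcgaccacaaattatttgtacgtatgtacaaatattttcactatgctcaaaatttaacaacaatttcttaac
Abd-B: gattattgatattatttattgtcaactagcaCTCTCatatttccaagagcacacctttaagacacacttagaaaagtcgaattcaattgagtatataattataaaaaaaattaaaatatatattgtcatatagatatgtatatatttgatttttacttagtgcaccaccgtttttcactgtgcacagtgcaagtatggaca

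NK7.1, an NK-class homeobox gene of 43539 bp, had the strongest call of all members. Its first IDR peak lay 432 bp upstream of its own start site, with a pooled signal of 173.9 and rank 383. The call at that summit ranked 363, 256 and 653 in replicates 1, 2 and 4, with signals of 56.4, 73.4 and 53.3 on each list's own scale. It was thus in the top 1143 of each replicate. A second IDR peak (rank 588) lay in the gene, 703 bp upstream of an internal NK7.1 start, and ranked 949, 730 and 478 in the replicates. The third (rank 646) lay beyond the 3' end, 15 bp downstream of the start of ATPsynE, which encodes a subunit of the mitochondrial ATP synthase; it ranked 890, 691 and 2003. NK7.1 was the only member with an IDR summit within 500 bp of its own start. This is 2.27% of members (interval 0.402 to 11.8), against 8.02% of other genes of the same lengths, 6.39% with start-site sequence also weighted and 5.94% of all protein-coding genes, all of which the interval held.

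**Figure D2:**
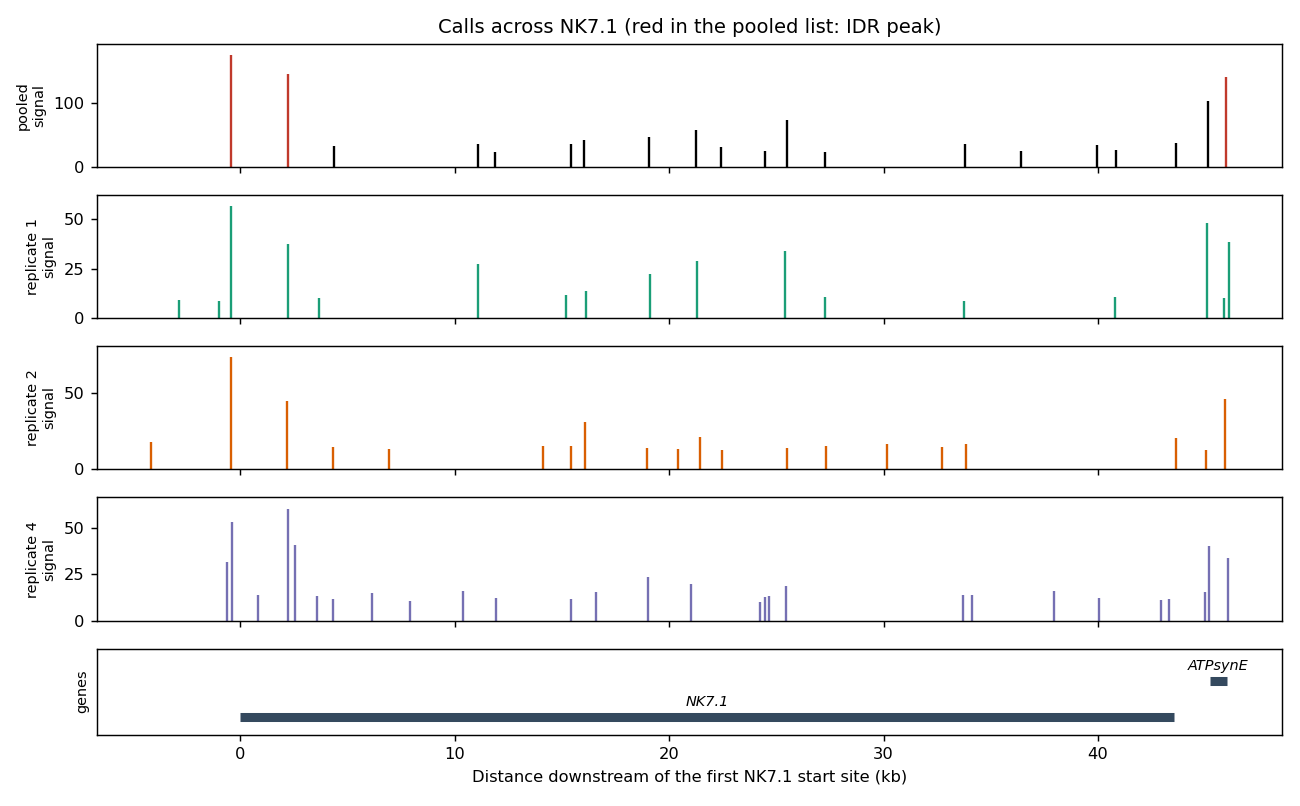
Signal of each call (vertical axes, the authors' value on each list's own scale) by distance downstream of the first NK7.1 start site in kb (horizontal axis), for the pooled list and replicates 1, 2 and 4, with the genes at the bottom. Red lines are IDR peaks, and all 3 have a call in each replicate; of the 15 weaker pooled calls inside the gene, 4 have one in each replicate and 8 in at least 2.

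Among the gap and terminal genes, which divide the early embryo into broad regions, cad held the only IDR peak. The peak (rank 506, signal 154.3) lay 16502 bp from the nearest cad start and 260 bp upstream of Pomp, a proteasome assembly gene that lies next to cad. It ranked 334, 834 and 1224 in replicates 1, 2 and 4, so replicate 4 held it just below its top 1143. The other gap and terminal genes ranked lower. Best pooled ranks were 3729 for knrl and 3981 for Kr, 5276 for hb, 6237 for tll and 10489 for kni. The best call of hb, a zinc finger gene of the anterior embryo, lay 206 bp upstream of its start. It ranked 3371 in replicate 2 and 27735 in replicate 4 and had no call in replicate 1.

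Among the T-box genes the Dorsocross cluster stood out. Doc1, Doc2 and Doc3 encode T-box factors that act in the amnioserosa and the heart. Doc2 and Doc3 shared an IDR peak (rank 624, signal 140.6) that lay 742 bp past the 3' end of Doc2 and ranked 970, 374 and 1815 in replicates 1, 2 and 4. The 39847 bp from Doc3 to Doc1 held 3 IDR peaks, all between genes, where the main arms held 0.0854 IDR peaks per 10 kb. The others ranked 729 and 918 and lay 6901 bp from Doc1 and 6551 bp from Doc2, outside the windows. They ranked 864 and 2019 in replicate 1, 627 and 647 in replicate 2, and 1377 and 1517 in replicate 4. All 3 peaks were thus in the top 1143 of replicate 2 and none in that of replicate 4. In the Doc1 window the best call had pooled rank 2660, 1052 bp downstream of a Doc1 start. It ranked 2428 in replicate 1 and 2447 in replicate 4 and was missing from replicate 2. H15 and mid, the midline paralogues, had best ranks of 5016 and 20463 and no IDR peak, though 1 (rank 726) lay 9209 bp from mid.

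None of the 8 Hox genes had an IDR peak in its window. In their length classes, 10 to 20 kb, 20 to 50 kb and 50 kb or more, 27.3%, 28.1% and 33.4% of other genes had one. All 8 had pooled calls, 103 in sum and between 4 in Dfd and Scr and 28 in Ubx. Their best pooled ranks ran from 1301 in Antp to 8930 in Dfd. Antp, which specifies thoracic segments, came closest. Its strongest call, in an intron 20271 bp from the nearest Antp start, had a pooled signal of 98.4, where the weakest IDR peak had 106, and ranked 753, 1405 and 673 in replicates 1, 2 and 4. In replicate 2 another call of the same intron ranked 862, so Antp had a top 1143 call in each replicate, which only NK7.1 shared among the members.

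The other Hox genes differed more between replicates. Abd-B, which specifies the posterior abdomen, had a call 1906 bp from a start (pooled rank 1639) that ranked 409 in replicate 4 and 2930 in replicate 1 and had no counterpart in replicate 2. Ubx, which specifies the third thoracic and first abdominal segments, had its best call (rank 2433) in an intron, ranked 7890, 1199 and 19270 in replicates 1, 2 and 4. For abd-A the best call, rank 2616, ranked 7147, 1872 and 1674. Of the head and anterior thorax genes, lab had a call 503 bp from its start that ranked 1076 in replicate 2, and its strongest pooled call (rank 2547) ranked 3310, 7517 and 3349. Best pooled ranks of pb, Scr and Dfd were 2777, 5892 and 8930. Only the Antp call stood near the top of all 3 lists.

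The strongest call of the bithorax complex lay outside the windows of its genes. Over the main arms there were 2.24 pooled calls and 0.0854 IDR peaks per 10 kb, and the counts below were not tested against these rates. The complex from Ubx to Abd-B covers 315614 bp and held 89 pooled calls, or 2.82 per 10 kb, and 1 IDR peak. That peak had a pooled signal of 235.5 and rank 174, and lay between genes, 64447 bp from the Ubx start and 8341 bp past the 3' end of abd-A. It ranked 276, 91 and 399 in replicates 1, 2 and 4, with signals of 62.6, 114.5 and 64.8, and so was high in all 3. The next strongest call of the complex was that in Abd-B, at 87.7. The Antennapedia complex, from lab to Antp, held 74 pooled calls over 337802 bp, or 2.19 per 10 kb, and no IDR peak. Its strongest call (rank 1218) overlapped Ama, which is no Hox gene, and ranked 816 in replicate 1 and 322 in replicate 4 with no counterpart in replicate 2.

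**Figure D3:**
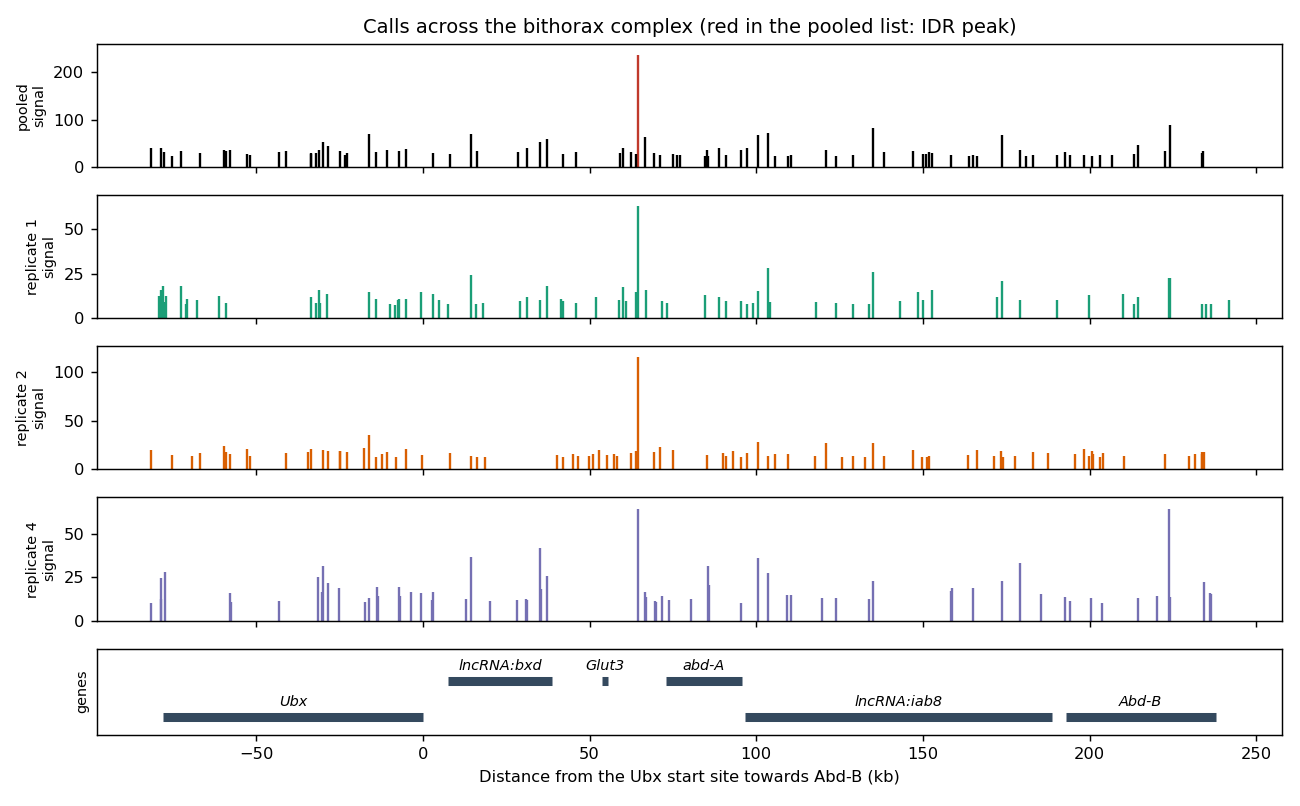
Signal of each call (vertical axes, the authors' value on each list's own scale) by distance in kb from the Ubx start site towards Abd-B (horizontal axis), for the pooled list and replicates 1, 2 and 4, with genes at the bottom. The red line at 64447 bp is the only IDR peak; it is the strongest call of the complex in each list, and the Abd-B call near the right edge comes close to it in replicate 4 alone.

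None of the 6 segment polarity and pair-rule genes had an IDR peak, and their best pooled ranks ran from 3138 to 16039 in the 5 with a call. Of other genes in their length classes, from under 2 kb to 20 to 50 kb, 13.7% to 28.1% had an IDR peak. wg, the Wnt ligand of the segment border, was best at rank 3138, a call that ranked 1611 in replicate 2 and 14180 in replicate 4 and was missing from replicate 1. inv had a best rank of 3456 and its paralogue en, which marks posterior compartments, 16039. The inv call ranked 1007 in replicate 2 and 17511 in replicate 1 and was missing from replicate 4. No call of en ranked above 12864 in any replicate. The pair-rule gene eve was the only member with no pooled call in its window. Its best replicate calls ranked 18704 in replicate 1 and 14797 in replicate 2, and replicate 4 had none. The Pax genes gsb-n and gsb had best pooled ranks of 3952 and 8573.

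The 7 eye and appendage genes had best ranks from 1342 to 4879 and no IDR peak. Of other genes in their length classes, 10 to 20 kb and 20 to 50 kb, 27.3% and 28.1% had one. Against genes of their own length class the median percentile of the 7 genes was 48.2. vg, a selector gene of the wing, had the strongest call, 168 bp upstream of the neighbouring glutamate receptor gene Nmda1. This call ranked 1781 and 1071 in replicates 2 and 4, and no replicate 1 call held its summit. The best replicate 1 call of the window, rank 3147, overlapped it. Its summit lay 4038 bp upstream of the vg start, against 4235 bp for the pooled summit. dac and so, genes of the retinal determination network, had calls of alike rank in the replicates. The dac call (pooled rank 1723) ranked 4219, 2688 and 2590, and the so call (pooled rank 1743, 253 bp upstream of its start) ranked 4342, 2643 and 2785. eya, their partner in that network, had a call ranked 2961, 8058 and 890. A call at the start of Dll, the gene of distal limbs, ranked 584 in replicate 1, and its pooled counterpart (rank 2964) had no call in replicates 2 and 4.

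ey and toy, the fly Pax6 genes, lie on chromosome 4, where replicate 2 had fewer calls. Each had 16 pooled calls, with best ranks of 4879 and 4119. ey had 23, 8 and 21 calls in replicates 1, 2 and 4, and toy 15, 3 and 20. Over the whole of chromosome 4 the replicates held 4.72, 1.85 and 5.46 calls per 10 kb, lowest in replicate 2.

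Of the other homeobox genes, tin and tup were high in some replicates. tin, which specifies the heart, had a call 244 bp upstream of its start (pooled rank 1649) that ranked 1560 in replicate 1 and 573 in replicate 4 and was missing from replicate 2. The best pooled call of tup, a LIM homeobox gene, ranked 1696 in the pool and 20503, 967 and 10153 in replicates 1, 2 and 4. Another tup call (pooled rank 1889) ranked 1624 in replicate 1 and 388 in replicate 4 and was missing from replicate 2. Both lay within 500 bp of a start of CG10602, beyond the 3' end of tup. lbl, a ladybird gene of muscle and heart, had 18 pooled calls and a best rank of 2218. That call lay beyond the 3' end of lbl, 544 bp upstream of CheB93b, and ranked 2488, 1875 and 21875 in replicates 1, 2 and 4. The next call of the lbl window had pooled rank 7688, and the best of lbe, its paralogue, had 14870. Drgx, C15 and slou had best ranks of 3046, 7405 and 10498. bap, a gene of visceral muscle, had the lowest best rank of any member with a pooled call, 25722, and no replicate call held that summit. The best replicate calls of its window lay elsewhere and ranked 15987, 12016 and 13062 in replicates 1, 2 and 4.

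The cluster of NK homeobox genes from tin to slou held 55 pooled calls over 178206 bp, or 3.09 per 10 kb, and 1 IDR peak. This peak (rank 69, signal 335.6) was strong in all 3 replicates, at ranks 94, 54 and 109, and lay 7568 bp from C15, outside its window, and 546 bp upstream of sp3. The Snail family genes esg, wor and sna, zinc finger genes of mesoderm and neuroblasts, had best ranks of 6431, 8957 and 12241. No call in the top 1143 of any list lay in the region of 144395 bp that spans them. The main arms held 0.0854 IDR peaks per 10 kb, and the counts of the NK and Snail regions were not tested against this rate.

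**Figure D4:**
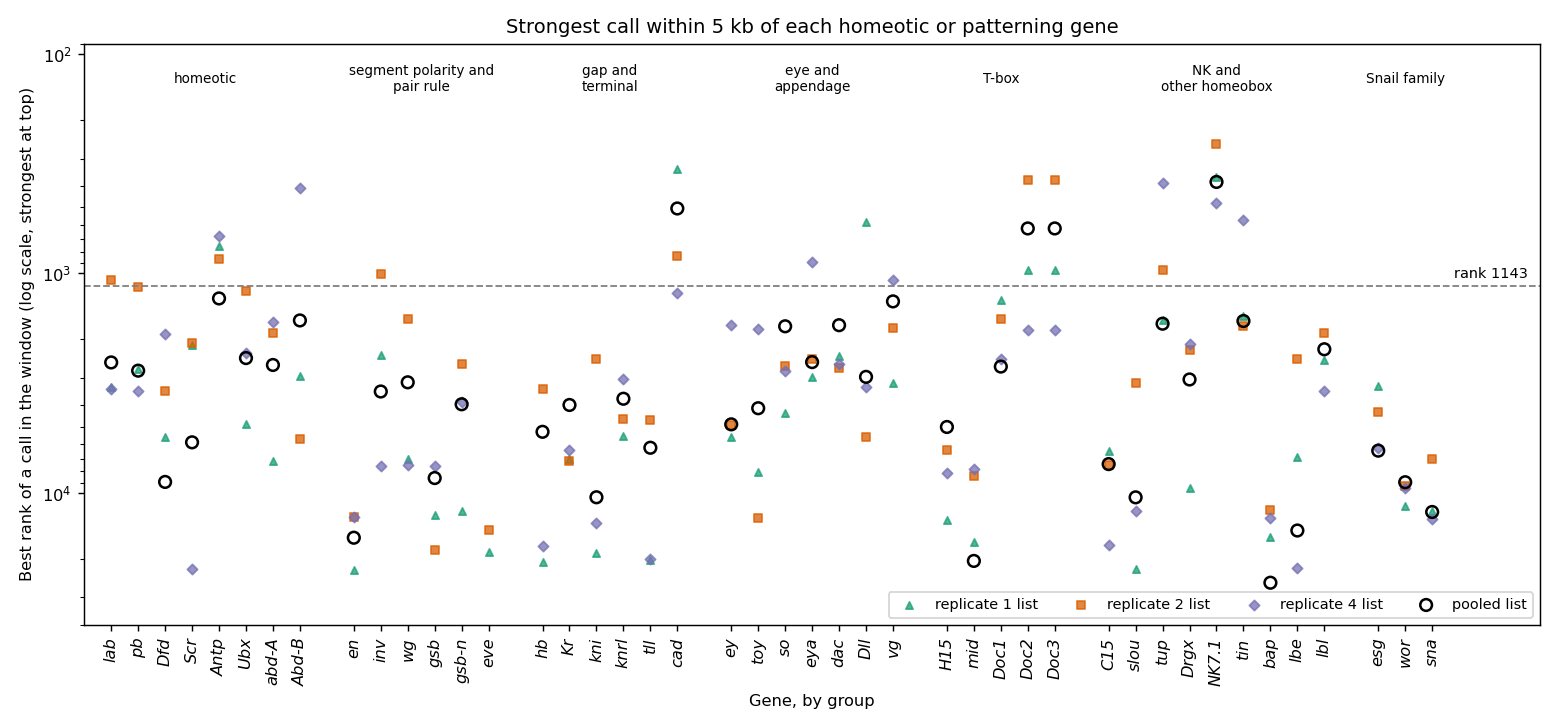
Best rank of any call within 5 kb of each gene (vertical axis, log scale, strongest at the top) for the 44 genes by group (horizontal axis); open circles are the pooled list and filled symbols the replicate lists. The dashed line is rank 1143, the length of the IDR list; 4 members lie above it in the pooled list, and Antp and NK7.1 alone lie above it in each replicate.

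At the top of each replicate list the share of members was also lower, but within counting error. Calls in the top 1143 of replicate 1 lay in the windows of 6 members (13.6%), against 24.8% of other genes of the same lengths and 18.7% of all protein-coding genes. For replicate 2 there were 8 members (18.2%), against 23.9% at the same lengths and 17.5% of all genes, and for replicate 4 7 members (15.9%), against 24.0% and 17.5%. These intervals, 6.40 to 26.7%, 9.51 to 32.0% and 7.93 to 29.4%, each held the share of other genes. Antp and NK7.1 had such a call in all 3 replicates (4.55%), against 13.0% of other genes at the same lengths and 9.17% of all genes. A top call in at least 1 replicate was found for 13 members (29.5%), against 36.9% at the same lengths and 28.0% of all genes. With start-site sequence also weighted, the 29.5% of members stood against 30.1% of other genes.

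Below the top of the list the shares of members lay close to those of other genes of the same lengths, while best ranks differed by length class. At least 1 pooled call lay in the window of 43 members (97.7%), against 97.7% of other genes at the same lengths and 93.6% of all protein-coding genes. The best rank was 5000 or better for 27 members (61.4%, interval 46.6 to 74.3), against 62.0% of other genes at the same lengths and 53.2% with start sites also weighted. The median best pooled rank was 3456 over the 43 members with a call. For other genes the class medians, averaged with the members per class as weights, gave 3321, which is not a like statistic. From the shortest class to the longest, member medians were 18981.5, 6431, 5276, 2547, 2870.5 and 1867. Those of other genes were 5915, 4066, 3324, 2620, 2810 and 2238. Members were thus weaker in each class under 10 kb, with few members in each. Within its length class the median member stood at percentile 53.8, where a low value is a strong call; going from the strongest to the weakest 25% of each class, the members numbered 4, 15, 17 and 8. In replicates 1, 2 and 4 the median best ranks of members were 5521, 2616 and 3349. The weighted averages of the class medians of other genes were 3164, 3431 and 3591. These too are unlike statistics, so no difference is read from them.

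**Figure D5:**
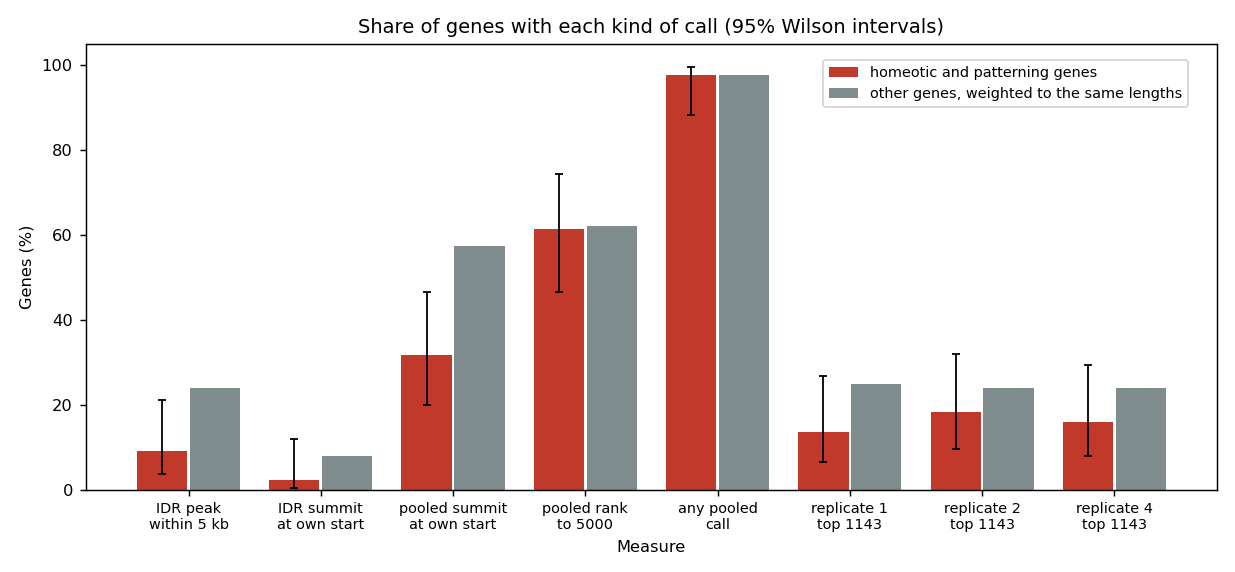
Percent of genes (vertical axis) that meet each measure (horizontal axis), for the 44 homeotic and patterning genes (red, left, with 95% Wilson intervals) and for other protein-coding genes weighted to the same lengths (grey, right). The red bars are lower for IDR peaks and for calls at the gene's own start, and level with the grey ones for pooled ranks to 5000 and for any pooled call.

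The calls of the members lay in introns and between genes more than at start sites. The windows held 345 distinct pooled calls, or 2.87 per 10 kb, against 2.24 per 10 kb over the main arms. The median member had 2.80 per 10 kb. For other genes the class medians, averaged with the members per class as weights, gave 2.79, which is not a like statistic. A summit within 500 bp of a start site was found for 11.3% of member calls (interval 8.38 to 15.1), against 24.1% of the other pooled calls. Introns held 50.4% of member calls (45.2 to 55.7), against 39.1%, and intergenic sequence 24.6%, against 19.8%. Coding exons held 6.09%, against 9.84%. The other pooled calls here are those of the whole list, not weighted to the lengths of the members. Of the 39 member calls at a start site, 17 were nearest to a member's start and the rest to a neighbour's. The smaller amount of start-site sequence in the members' windows, given above, moves with this share, and its part in the share was not tested.

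Calls at the members' own starts were also fewer. A pooled summit lay within 500 bp of an own start site in 14 of 44 members (31.8%, interval 20 to 46.6), against 57.4% of other genes of the same lengths and 45.0% of all protein-coding genes. With start-site sequence in the window also weighted, the share of other genes was 52.3%, which lay above the interval of the members. The 14 were 5 of the 8 Hox genes, 4 of the 7 eye and appendage genes, 3 of the 9 NK and other homeobox genes, and 1 of 6 in each of the segment polarity and gap groups. None was among the 5 T-box or 3 Snail family genes. The groups are small and differ in gene length, and no share of other genes is given for each, so they are not compared.

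By rank, a smaller share of member calls than of other calls stood at the top of the list, though few calls decide it. The first 1143 ranks held 5 of the 345 member calls (1.45%), against 3.84% of the other pooled calls. Of these 5, 3 lay in the NK7.1 window. The shares by rank were not weighted by gene length or start-site sequence. Ranks from there to 5000 held 13.0% of member calls and 12.9% of other calls, ranks from there to 15000 held 37.4% and 33.3%, and the weakest ranks 48.1% and 50.02%. Replicate support was alike: 13.6% of member calls had a call of all 3 replicates at the summit, against 13.2% of other calls, and 31.6% against 33.6% had a call of 2.

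Of the sequence elements tied to Polycomb recruitment, the Pho core was about as frequent at member calls as at others, and the GAGA element was somewhat more frequent. Within 100 bp of the summit, on either strand, GCCAT occurred at 33.6% of member calls (interval 28.8 to 38.8) and at 33.0% of other pooled calls. GAGAG occurred at 24.1% of member calls (19.9 to 28.8) and at 19.7% of others, a value just below that interval. Among the 50 member calls of rank 5000 or better the shares were 16.0% for GCCAT and 26.0% for GAGAG, against 26.4% and 20.4% of other calls of those ranks; both intervals held the share of other calls. Median GC content was 38.3% in both sets. A match is a string of letters and says nothing of whether a factor binds there.

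A wider list of other patterning genes, drawn up by name from segmentation, homeobox, Pax, Sox and similar regulators, gave a value between those of the members and of other genes. Of its 82 symbols, 79 matched the annotation, and the pair-rule gene h was among those left out. An IDR peak lay in the window of 12 of them (15.2%, interval 8.91 to 24.7), against 22.9% of other genes of their lengths. The interval held both that share and the 9.09% of the members, so the list is not set apart from either. The share of other genes was weighted by length alone here. The strongest were in the windows of otp (rank 66), slp2 (rank 102), fkh (rank 403), sob (rank 612), Awh (rank 696) and Poxm (rank 766). Those of slp2, fkh and Poxm were nearest to a start of the gene itself. The otp peak lay 12998 bp from an otp start and 4656 bp from a start of Cib2. The sob and Awh peaks were nearest to starts of long noncoding RNAs. otp ranked 81, 44 and 140 in replicates 1, 2 and 4, and slp2, a forkhead gene of segmentation, 170, 106 and 78. Only fkh and Poxm had an IDR summit within 500 bp of their own start, 245 and 408 bp upstream. The fkh peak ranked 180 and 275 in replicates 1 and 2 and 8735 in replicate 4.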

How the data were processed

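The material was 3 ChIP-seq libraries of eGFP-tagged CG10565 from whole embryos. Per the deposited README files, the authors called peaks and background in each replicate alignment and in the 3 alignments together, each against 1 control alignment. From these lists they derived the optimal IDR list. Not given in the sources used here are the aligner, the caller and the threshold of the IDR step. The values are the authors' deposited signal per call, which was used only to rank calls within a list. Summits come from the deposited offsets. The lists carry no read counts, so depth is unknown, and the control was not analysed here. Lists for dm3 were not used.

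The dm6 lists were joined to 17683 genes and 23517 start sites of the Ensembl annotation of the same release, without transposable elements. Gene windows, length classes (edges at 2, 5, 10, 20 and 50 kb) and shares were computed with Python 3.11.15 and pandas, and the counting was tested on simulated calls. A replicate call belonged to a pooled call when it held the pooled summit. The most frequent call width was 370, 350 and 600 bp in replicates 1, 2 and 4, so the wider calls of replicate 4 hold a summit more readily. A call named as missing from a replicate can still have a call beside it there. Other genes were weighted to the members' numbers per length class. For best ranks and calls per 10 kb, the medians of other genes in each class were averaged with these weights. No p-value is given, because there is 1 group and the genes were picked by name. The members and lists were chosen with earlier results of these data known. Named genes were all members with an IDR peak, the next 12 by best rank and the 5 lowest, and other members are given by rank. Alternatives were other flanks, gene sets, length classes, start-site and motif windows, a stronger cut, and each replicate left out or alone.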

Additional observations from a re-analysis of the deposited data

How the results depend on the processing

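The count of 4 members with an IDR peak depended on the window. It was 1 with no flank, 2 with 1000 bp and 10 with 10000 bp, and the share of other genes at the same lengths moved with it, to 10.5% with no flank, 16.2% with 1000 bp and 32.3% with 10000 bp. The share of members, 2.27%, 4.55%, 9.09% and 22.7% from the narrowest to the widest window, was lower than that of other genes at each, but with no flank (interval up to 11.8%) and with 10000 bp (12.8 to 37.0%) the members' interval held the share of other genes. With the stronger 50% of the IDR peaks the count was 2 (4.55%, interval 1.26 to 15.1), against 13.7% of other genes of the same lengths and 10.2% of all. When calls in the top 1143 of both remaining replicates took the place of the IDR list, the count ranged from 1 to 4; these sets are smaller by construction, with 563 to 678 calls, and the shares of other genes are given above. Without replicate 1 the member left was NK7.1, without replicate 2 they were NK7.1 and Antp, and without replicate 4 the 4 were those of the full list. The median best rank was 5521 in replicate 1 alone. Calls per 10 kb were 2.74 with no flank and 3.05 in replicate 1. The share of member calls at a start site was 7.54% within 250 bp and 20% within 1000 bp, against 15.1% and 36.3% of other calls. GAGAG was at 13.3% of member calls within 50 bp and 39.7% within 200 bp, against 9.95% and 36.5% of other calls. GCCAT was at 18.8% and 59.1% of member calls, against 18.2% and 55.5%. Members with a pooled call numbered 35 with no flank and 33 with each replicate left out, when a call in both others was asked for. No share of other genes is given for these settings, so these counts do not set the members against other genes. The added weighting by start-site sequence gave 18.6%. No paired analysis was possible because there is 1 group.

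Depth is unknown, so a missing call in a replicate list shows only that none of its 30000 calls held the pooled summit. With 44 genes, a share near 9% has an interval that spans several-fold, and single genes decide the count.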

Other observations

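The 6 members that were nearest to an IDR peak, 13.6% against 13.4% of other genes of the same lengths, were abd-A, NK7.1, Doc1, Doc2, mid and tup. For abd-A, mid, Doc1 and tup the peak lay 8341, 9209, 6901 and 9014 bp from the gene, beyond the 5000 bp window. The mid peak had a pooled signal of 130.8 and rank 726, and ranked 1623, 604 and 972 in replicates 1, 2 and 4. The tup peak, 9014 bp upstream of its start, had a signal of 124.5 and rank 822, and ranked 1639, 896 and 788. These peaks were picked out after their values were seen.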
